A study of Mus musculus with 6 samples.

Results

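The orphan G protein-coupled receptors are membrane proteins recognised from their sequence before a ligand was known, and in mice most carry a Gpr number. Here they were taken, with both melatonin receptor genes Mtnr1a and Mtnr1b, as every gene symbol made of Gpr and a number except Gpr37. The rule gave 66 genes of the 19938 that were tested, each with 1 probe set. The samples were enterospheres, free-floating spheres of neural progenitor cells grown from gut circular muscle of newborn C57BL/6 mice up to 12 hours old. Of the 6 samples, 3 were kept for 1 day with T3 (triiodothyronine, the thyroid hormone that binds nuclear receptors) at 100 nM, the unit being written nm in the labels. The 3 control samples were kept for that day without it. All 6 came from pooled cells of 3 mice each, had 4 and then 5 days of growth with epidermal and fibroblast growth factors, and 1 day in differentiation medium before T3 was added to some of the dishes. Nothing says whether the samples of a group came from separate preparations, so p-values measure only the spread between these samples.

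G protein-coupled receptors pass an outside signal to heterotrimeric G proteins, which raise or lower cyclic AMP, release calcium or act on ion channels. Melatonin receptors MT1 and MT2, encoded by Mtnr1a and Mtnr1b, couple to inhibitory G proteins. Gpr50 encodes their closest relative, which does not bind melatonin, pairs with MT1 and dampens it, and is known from the tanycytes that line the third ventricle of the brain. Several proteins with a Gpr number are not classical receptors at all but sit in the Golgi, lysosomes or melanosomes.

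The design asks which of these genes differ between enterospheres with and without T3, and 4 of the 66 passed the test, all higher with T3. They were Gpr50, Gpr158, Gpr165 and Gpr162. A gene was called when its limma p, adjusted by Benjamini-Hochberg over all 19938 genes, was under 0.05. The 4 genes are 6.06% of the 66, against 3.10% of all genes tested (618), 2.28% higher and 0.823% lower. Gpr50 and Gpr158 also passed in every fit that left out 1 array, while Gpr165 and Gpr162 did not. In such whole-sphere RNA, more cells of a type and more RNA per cell cannot be told apart, nor can fewer cells and less RNA per cell.

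Of the 4 genes called higher (Gpr50, Gpr158, Gpr165 and Gpr162), the sequence before the start site is shown for the first 3. It was taken from RefSeq's promoter table (GRCm38.p6), which had entries for 50 of the 66 genes but none for Gpr162. Each line gives the 250 bases before the annotated start, 5′ to 3′. Capitals mark the letters GGTCA, the core of the half-site that thyroid hormone receptors bind, and CCAAT, the CCAAT box, in either orientation (TGACC and ATTGG on the other strand).
Gpr50 (chrX:71663417-71663666, plus strand): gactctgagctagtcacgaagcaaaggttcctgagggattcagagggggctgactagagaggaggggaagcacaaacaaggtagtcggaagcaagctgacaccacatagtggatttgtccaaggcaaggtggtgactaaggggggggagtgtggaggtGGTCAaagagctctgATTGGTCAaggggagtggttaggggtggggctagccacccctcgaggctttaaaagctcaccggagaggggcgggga
Gpr158 (chr2:21367317-21367566, plus strand): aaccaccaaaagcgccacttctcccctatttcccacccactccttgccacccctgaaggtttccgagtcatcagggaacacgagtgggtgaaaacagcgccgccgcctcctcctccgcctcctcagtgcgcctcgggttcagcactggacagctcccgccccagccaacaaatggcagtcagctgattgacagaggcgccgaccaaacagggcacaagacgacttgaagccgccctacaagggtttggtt
Gpr165 (chrX:96713218-96713467, plus strand): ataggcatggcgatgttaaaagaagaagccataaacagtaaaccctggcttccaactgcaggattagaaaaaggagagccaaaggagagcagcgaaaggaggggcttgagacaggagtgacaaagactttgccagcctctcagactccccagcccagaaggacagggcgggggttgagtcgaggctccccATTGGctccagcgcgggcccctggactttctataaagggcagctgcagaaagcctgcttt
The full half-site AGGTCA, searched on both strands, was in none of these 3 windows and in 14.0% of all 32851 promoter windows of that length. The shorter GGTCA, which every AGGTCA also contains, was in the Gpr50 window, starting 92 and 74 bases before the start, and in 35.2% of all windows. The CCAAT box was in those of Gpr50 and Gpr165 and in 33.8% of all windows. In Gpr50 it started 77 bases before the start and overlapped the nearer GGTCA. The GC box GGGCGG was in all 3 and in 32.7% of all windows. A match describes letters only and is neither a bound site nor a cause.

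Gpr50 had the largest rise of the 66 genes. Its log2 values were 9.53, 9.44 and 9.59 on the T3 arrays, against 7.22, 8.04 and 7.73 on the control arrays. The T3 values lay close together and clear of every control value, while the controls were spread widely. The mean was 9.52 ± 0.08 with T3 and 7.67 ± 0.42 in controls (SD, n = 3 each). This control SD and that of Gpr21, also 0.42, were the largest of the 66 genes. T3 minus control was 1.85 on the log2 scale (SE 0.179, 95% interval 1.445 to 2.264), a 3.62-fold difference in normalized signal, with limma adjusted p = 0.00182. It ranked 6 among all genes by rise. An exact two-sided permutation test over the 20 splits of the 6 arrays gave p = 0.1, the smallest that 3 against 3 can give. The change was 1.63 without control replicate 1 and 2.04 without control replicate 2.

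The receptors that do bind melatonin showed no such difference. Mtnr1a had log2 values of 3.96, 4.11 and 4.06 with T3 and 4.04, 4.01 and 4.15 in controls. Mtnr1b had 5.03, 4.89 and 5.06 with T3 and 5.10, 4.79 and 5.10 in controls. Both probe sets lay below the array median of 6.09 to 6.15 on every array, and the groups overlapped. T3 minus control was -0.02 for Mtnr1a (95% interval -0.193 to 0.148, adjusted p = 0.964, limma) and 0.00 for Mtnr1b (-0.228 to 0.231, adjusted p = 0.998, limma). These values carry no detection calls, so whether either gene was above background is not known, and array background tends to shrink the change of a dim gene.

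**Figure D1:**
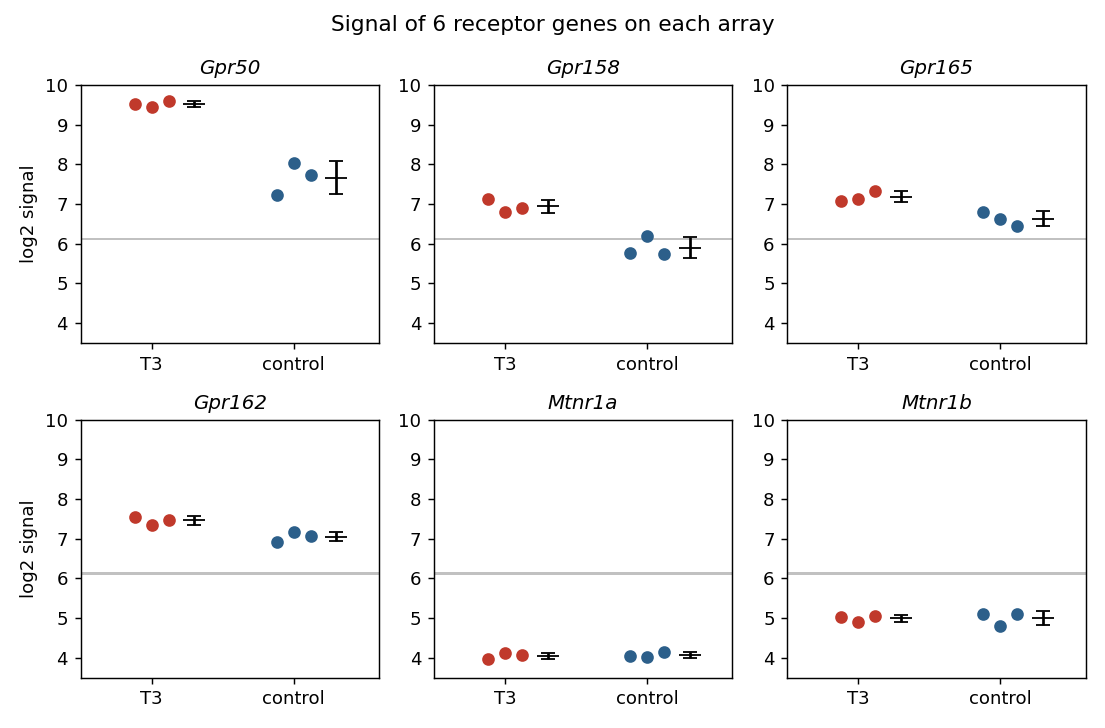
The log2 signal of 6 genes on each of the 3 T3 arrays (red) and 3 control arrays (blue), with mean and SD in black and the range of the array medians as a grey band. The T3 values lie above all control values for Gpr50, Gpr158, Gpr165 and Gpr162, and overlap with them for Mtnr1a and Mtnr1b.

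Gpr158, a class C receptor of neurons that responds to glycine and recruits the G protein regulator Rgs7, was the other gene to differ by at least 2-fold. Its log2 values were 7.13, 6.80 and 6.89 with T3, against 5.77, 6.20 and 5.73 in controls. All T3 values were above the array median, and of the controls only replicate 2 was. T3 minus control was 1.04 (SE 0.138, 95% interval 0.722 to 1.354), a 2.05-fold difference, with limma adjusted p = 0.00706. Gpr179, its relative that anchors signalling in retinal bipolar cells, had 7.03, 6.73 and 6.96 with T3 and 6.56, 6.60 and 6.65 in controls. Its groups did not overlap, but the change of 0.30 (SE 0.090) did not pass (limma adjusted p = 0.145).

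Gpr165 and Gpr162, both class A orphans, rose by less. Gpr165 had log2 values of 7.08, 7.12 and 7.34 with T3, against 6.81, 6.63 and 6.44 in controls. Gpr162 had 7.55, 7.35 and 7.48 with T3, against 6.93, 7.17 and 7.06 in controls. The groups did not overlap for either gene, and each lay above the array median on all arrays. The control values of Gpr165 were below the median over the genes tested. T3 minus control was 0.55 (SE 0.113, limma adjusted p = 0.0374) for Gpr165 and 0.41 (SE 0.088, limma adjusted p = 0.0485) for Gpr162. The call of Gpr165 was lost without any 1 of the 6 arrays (adjusted p 0.0539 to 0.13, limma). That of Gpr162 held only in the fit that left out control replicate 2, and its adjusted p reached 0.207 in the other 5 such fits. Gpr153, the closest relative of Gpr162, had 8.91, 8.86 and 8.98 with T3 and 8.92, 9.01 and 9.14 in controls, and its change of -0.10 did not pass (limma adjusted p = 0.703). The difference between the changes of these relatives was not tested.

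Of 8 measured neuron markers, Prph and Snap25 rose, at 0.94 and 0.33 on the log2 scale, and 6 did not pass. Of these, Chrna3 and Stmn2 changed by 0.33 and 0.25, Th by 0.22, and Tubb3, Elavl4 and Uchl1 by 0.03, 0.02 and -0.02. The summed signal of the 8, each log2 value first turned back to a linear one, was 13771 to 14501 on the T3 arrays and 11595 to 12733 on the control arrays. None of the 8 lay at or near the bottom of the array, the lowest mean log2 value being 6.15. The part of the neuron markers in the rise of the 4 receptor genes was not tested.

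Levels were described next, by how far each probe set stood from its array's median. A gene was counted as well above it when its value was at least 1 log2 unit higher on each of the 6 arrays. That held for 18 of the 66 genes, 27.3%, against 45.5% of all genes tested. The count was 10 with a margin of 2 log2 units, and 11 with the median taken over the 19938 genes in place of all probe sets. On every array, 34 of the 66 (51.5%) were below the median, against 37.3% of all genes, and 14 lay between. Just inside the margin were Gpr50, whose lowest array stood 1.07 above the median, and Gpr173 at 1.26. Just outside were Gpr135 at 0.92 and Gpr176 at 0.84. Probe sets differ in how strongly they bind, so the distance from the median does not order the genes by their RNA.

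Of 7 genes grouped as intracellular and transporter-like proteins, 6 were well above the median. Gpr107, which works in trafficking at the Golgi, stood 3.27 log2 units above the median on average. Gpr137, of lysosomes, stood 2.99 above it and Gpr108, of the same family as Gpr107, 2.69. Gpr89, which encodes an anion channel that sets the pH of the Golgi, Gpr180 and the lysosomal cholesterol sensor Gpr155 stood 2.65, 2.48 and 2.30 above it. The 7th was Gpr143, the melanosome receptor of ocular albinism, at 2.34 below the median, and of 6 melanocyte markers only Mitf was well above it. None of the 7 was called: their changes ran from -0.04 to 0.13, with a smallest adjusted p of 0.634 (limma).

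Gpr17, a receptor of immature oligodendrocytes for which nucleotides and leukotrienes have been proposed as ligands, stood 5.21 log2 units above the median, the farthest of the 66. Its log2 values were 11.35, 11.14 and 11.08 with T3, against 11.42, 11.56 and 11.42 in controls. Every T3 value was below every control value, by a small margin. The change of -0.28 (SE 0.090, 95% interval -0.481 to -0.071) did not pass (limma adjusted p = 0.183). The other 8 receptors of lipid and metabolite ligands, among them the lysophosphatidylserine receptor Gpr34 and the oxysterol receptor Gpr183, were not well above the median. Of these, Gpr119, a receptor of fatty acid amides, had a change of 0.24 (limma adjusted p = 0.273) and Gpr18 one of 0.21 (adjusted p = 0.321), each with T3 values above all control values.

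Class A orphans of the nervous system and other tissues numbered 26, and 7 of them were well above the median. Besides Gpr153 these were Gpr19, Gpr20, Gpr22, Gpr52, Gpr75 and Gpr146, at 1.57 to 2.45 log2 units above it on average. Gpr75, a candidate receptor for an arachidonic acid metabolite, had 7.77, 7.81 and 7.90 with T3 and 7.53, 7.74 and 7.42 in controls, a change of 0.26 (limma adjusted p = 0.226). Gpr19 changed by 0.28 (limma adjusted p = 0.345), with overlapping groups. Gpr20, an orphan also known from the pacemaker cells of the gut, changed by 0.12 (limma adjusted p = 0.575), and Gpr146, tied in liver to cholesterol levels, by 0.12 (adjusted p = 0.572). Gpr52, which raises cyclic AMP in striatal neurons, changed by 0.10 (limma adjusted p = 0.884) and Gpr22 by -0.07 (adjusted p = 0.858). The genes just outside the margin, Gpr135 and the circadian orphan Gpr176, changed by 0.13 and 0.11 and did not pass.

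The SREB family, a set of 3 brain receptors conserved across vertebrates, had values above 0 for each change. Gpr173 had 7.69, 7.65 and 7.72 with T3, against 7.41, 7.43 and 7.48 in controls. The groups did not overlap, yet the change of 0.25 (SE 0.066) did not pass (limma adjusted p = 0.102). It passed when the dimmest 50% of genes were left out of the test (adjusted p = 0.0338). Gpr85 and Gpr27 changed by 0.19 and 0.08, with overlapping groups and adjusted p of 0.631 and 0.836 (limma).

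Gpr161, the receptors that raise cyclic AMP without a ligand and the proton-sensing receptors gave no calls. Gpr161, which holds Hedgehog signalling off at the primary cilium, stood 1.56 log2 units above the median. Its values were 7.62, 7.58 and 7.62 with T3 and 7.63, 7.69 and 7.93 in controls, a change of -0.14 (limma adjusted p = 0.586). Gpr3, Gpr6 and Gpr12, which raise cyclic AMP without a ligand, changed by 0.09, -0.21 and 0.23, and Gpr12 came closest to passing with adjusted p = 0.301 (limma). The proton-sensing Gpr4, Gpr65 and Gpr132 were all below the array median on average, with changes of -0.18 to 0.08.

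Of 7 receptors known from blood, immune and endothelial cells, none was well above the median. Only Gpr25 stood above it on average, by 0.21 log2 units. Gpr182, an endothelial chemokine scavenger, had 5.49, 5.58 and 5.53 with T3 and 5.85, 5.69 and 5.67 in controls. Its T3 values were below all control values, and the change of -0.20 did not pass (limma adjusted p = 0.253). Gpr82, far below the median, had T3 values above all control values, and its change of 0.23 did not pass (limma adjusted p = 0.339). None of 10 macrophage and leukocyte markers was well above the median, their gene means lying between 4.29 and 6.12. Of 9 endothelial markers, Egfl7 alone was, and their summed linear signal was 795 to 910 with T3 and 932 to 1049 in controls. Without Egfl7, a sum chosen after the values were seen, it was 503 to 614 with T3 and 479 to 540 in controls. Egfl7 and Kdr fell by 0.70 and 0.41 on the log2 scale and Plvap rose by 0.42. The other 6 did not pass, with changes of 0.02 for Tie1 to 0.42 for Cdh5, and the median of the 9 was 0.13. The part of endothelial cells in the values of Gpr182 was not tested.

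**Figure D2:**
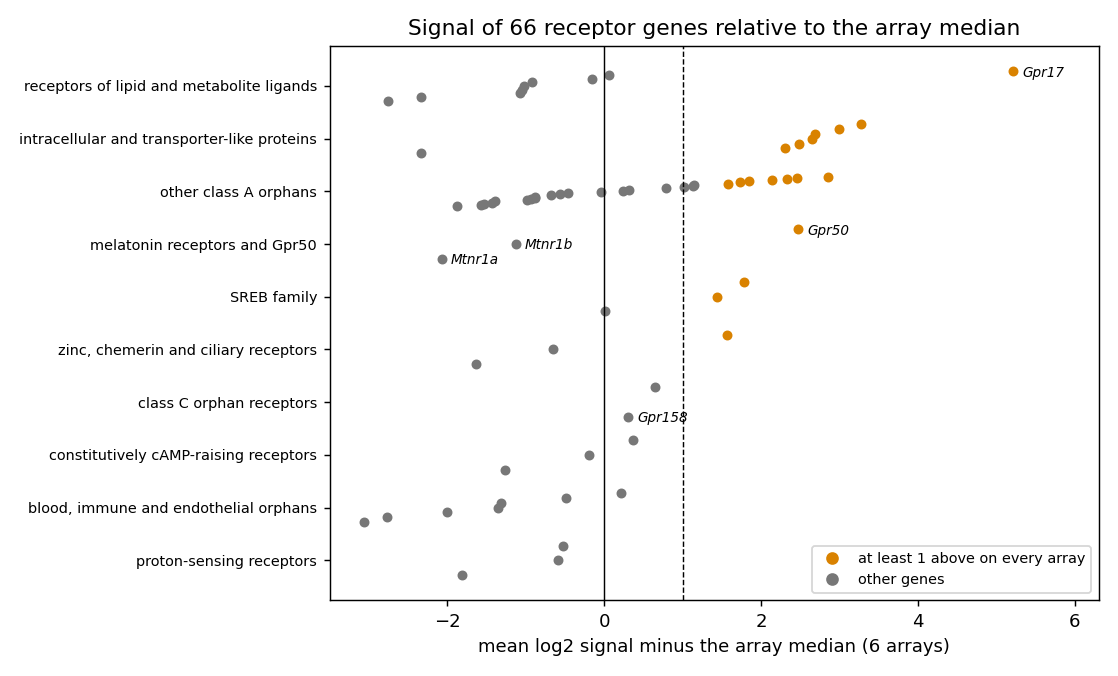
Mean log2 signal of each of the 66 genes over 6 arrays minus the array median, by role. Orange marks the 18 genes at least 1 above the median (dashed line) on every array. They include Gpr17, Gpr50 and 6 of the 7 genes grouped as intracellular and transporter-like proteins. Mtnr1a and Mtnr1b lie below the median.

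Across all 66 genes the changes centred near 0, with a median of 0.035 on the log2 scale against 0.009 for all genes tested. A change above 0 was found for 39 of the 66 (59.1%), against 53.3% of all genes. T3 values were above all control values for 12 genes, 18.2%, against 11.9% of all genes, and below them for 4, 6.06%, against 7.55% of all genes. An unadjusted p under 0.05 was reached by 14 of the 66 (12 higher, 2 lower), 21.2% against 13.7% of all genes. Among the 18 genes well above the median, 1 was called, Gpr50, against 3.98% of all genes so placed. The changes of the 62 genes not called ran from -0.37 for Gpr21 to 0.30 for Gpr179, with standard errors of 0.066 to 0.195. For 58 of them the 95% interval excluded a change of 0.5 log2 units in either direction. It did not for Gpr19, Gpr21, Gpr39 and Gpr179. These intervals bound the change in array signal and not that in RNA. Background tends to shrink the change of a dim gene, and 34 of the 66 were below the array median on every array. Gpr39, a zinc-sensing receptor, had 6.03, 5.19 and 5.62 with T3 and 5.17, 5.42 and 5.37 in controls, its T3 values spreading more widely than the controls and overlapping them.

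**Figure D3:**
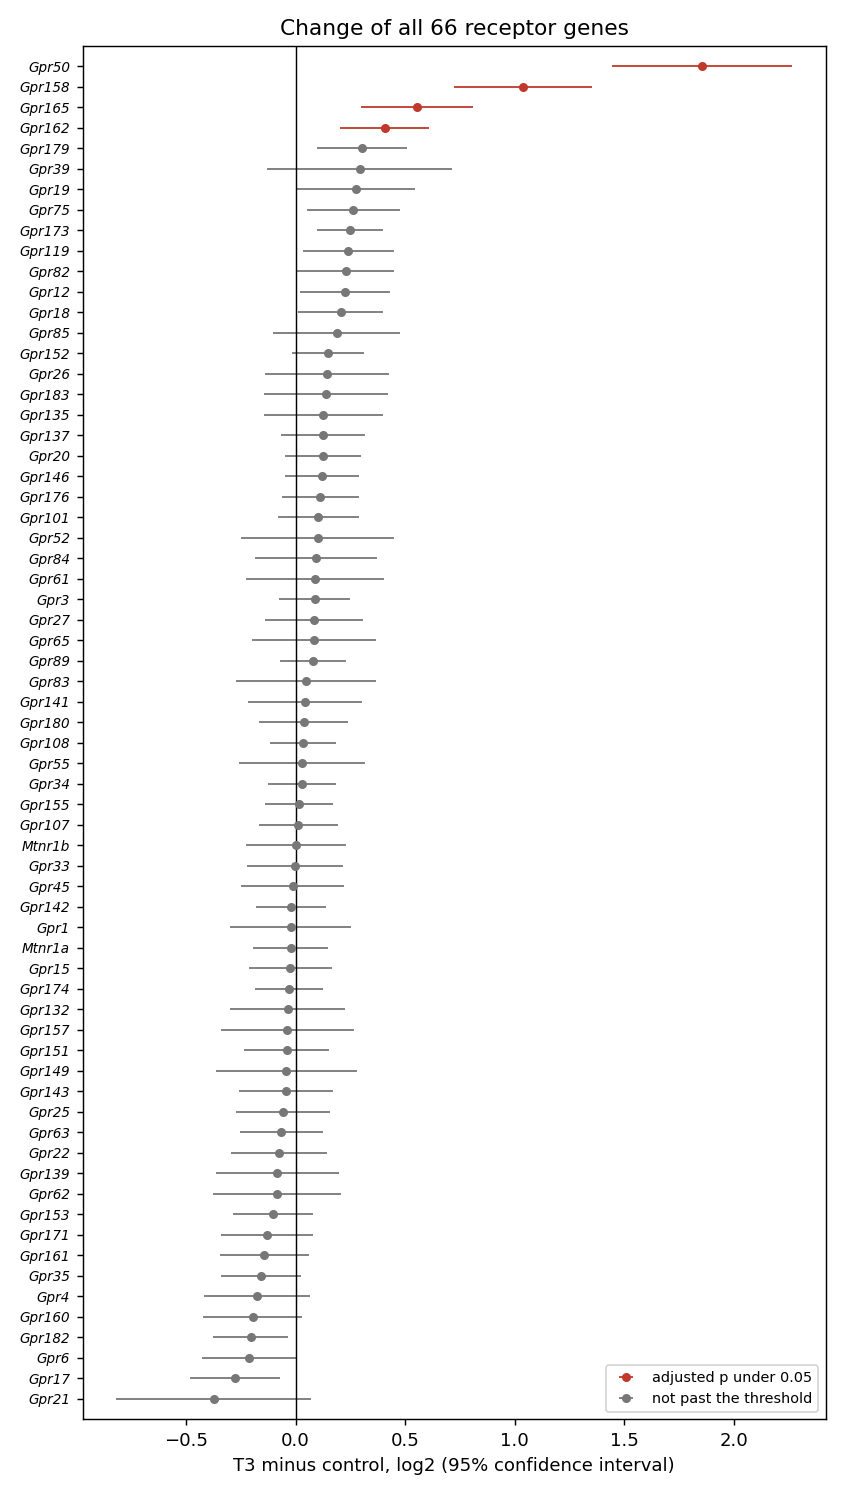
T3 minus control on the log2 scale for all 66 genes with 95% confidence intervals, ordered by size. Gpr50 at 1.85, Gpr158 at 1.04, Gpr165 at 0.55 and Gpr162 at 0.41 (red) passed at an adjusted p under 0.05, and the other 62 lie between -0.37 and 0.30.

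Taken next were 8 lists, of genes that act with these receptors and, as 1 list, of adhesion receptors. Of their 103 measured genes 9 were called, 8.74%, with 4 higher and 5 lower. Of all genes tested, 3.10% were called, 2.28% higher and 0.823% lower, and the list counts below stand beside the same shares. With each array centred on its median the count was again 9, split into 6 higher and 3 lower: Adcy4 and Rgs4 were not called there (adjusted p of 0.0579 and 0.0551, limma), and Rgs17 and Pcsk1, named after their values were seen, were. None of the 5 measured genes of melatonin synthesis and binding passed (6 were listed). Ddc, the decarboxylase of the serotonin step, changed by -0.35 (limma adjusted p = 0.34). Aanat, the rate-limiting enzyme of melatonin synthesis, changed by 0.03 (limma adjusted p = 0.957) and stood 0.65 log2 units below the array median on average. None of 5 reported partners of Gpr50 passed either. The TGF-beta receptor gene Tgfbr1, whose activity Gpr50 has been reported to raise, had 8.79, 8.75 and 8.74 with T3 and 8.88, 8.97 and 8.82 in controls, a change of -0.13 (limma adjusted p = 0.492).

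Adenylyl cyclases, which make cyclic AMP, moved both ways, with 1 of 10 higher and 2 lower. Adcy7 had 6.90, 7.14 and 7.26 with T3, against 6.36, 6.34 and 6.22 in controls, a change of 0.80 (SE 0.101, limma adjusted p = 0.00578). Adcy1 had 7.29, 7.35 and 7.34 with T3, against 7.79, 7.66 and 7.97 in controls, and fell by 0.48 (adjusted p = 0.0261, limma). Adcy4 had 6.70, 6.75 and 6.75 with T3, against 7.09, 7.17 and 7.49 in controls, and fell by 0.51 (adjusted p = 0.0381, limma). The groups of all 3 genes were apart. Adcy7 passed without any 1 array, Adcy1 only without control replicate 2 and Adcy4 only without control replicate 3. Adcy4 also missed the threshold after a renewed quantile normalization (limma adjusted p = 0.0501).

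Of 18 regulators of G protein signalling, which switch G proteins off, Rgs6 rose, Rgs4 fell and 16 did not pass. Rgs6 had 6.44, 6.53 and 6.36 with T3, against 5.61, 5.75 and 5.70 in controls, a change of 0.76 (SE 0.077, limma adjusted p = 0.0024) that passed without any 1 array. Rgs4 had 7.09, 7.10 and 7.46 with T3, against 7.64, 7.82 and 7.81 in controls, a change of -0.55 (adjusted p = 0.038, limma), which passed only without T3 replicate 3. Rgs7, the partner of Gpr158 in brain and a close relative of Rgs6, had 6.43, 6.28 and 6.46 with T3 and 5.74, 6.16 and 5.87 in controls. Its groups did not overlap and its change of 0.47 (SE 0.112) did not pass (limma adjusted p = 0.0726). The other genes of that subfamily, Rgs9 and Rgs11, changed by -0.05 and 0.12 and did not pass.

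Of 17 genes switched on by cyclic AMP and CREB, 2 fell and 15 did not pass, and the median change of the list was -0.05. Among those not called, Pcsk1 changed by 0.53 with T3 values above all control values (limma adjusted p = 0.0812). Fos and Crem changed by -0.03 and 0.01. The orphan nuclear receptor gene Nr4a3 had 6.80, 6.56 and 6.62 with T3, against 7.31, 7.44 and 7.44 in controls, a change of -0.73 (SE 0.085, limma adjusted p = 0.00409). The zinc finger factor Egr2 had 8.37, 8.67 and 8.73 with T3, against 9.15, 9.23 and 9.30 in controls, a change of -0.64 (adjusted p = 0.0144, limma), lost without control replicate 1 (adjusted p = 0.0567). Both groups of values were apart. Egr2 is also known as a factor of Schwann cell myelination.

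None of 12 G protein alpha subunits passed, the nearest being Gna14 at 0.36 (limma adjusted p = 0.0879, and 0.0414 without control replicate 2), nor did any of 9 receptor kinases and arrestins. Of these last, the arrestin-like gene Arrdc3 had the smallest p, with a change of -0.20 (limma adjusted p = 0.431). Adhesion receptors, of which many once carried Gpr numbers and are now named Adgr, had 2 of 27 higher. Adgra1 had 8.23, 8.24 and 8.34 with T3, against 7.65, 7.77 and 7.64 in controls, a change of 0.58 (SE 0.074, limma adjusted p = 0.00578) that passed without any 1 array. Adgrd1 had 9.46, 9.65 and 9.55 with T3, against 8.96, 9.25 and 9.03 in controls, a change of 0.47 (adjusted p = 0.0349, limma), which passed only without control replicate 2.

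**Figure D4:**
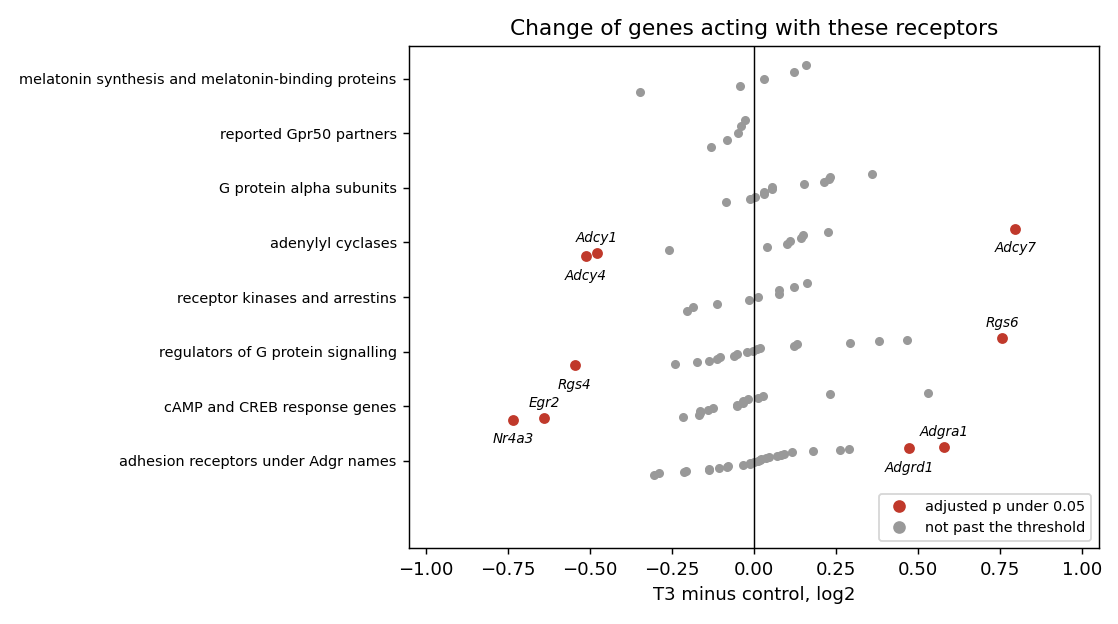
T3 minus control on the log2 scale for 103 genes of 8 lists, 1 point per gene. Adcy7 at 0.80, Rgs6 at 0.76, Adgra1 at 0.58 and Adgrd1 at 0.47 were called higher (red), and Nr4a3 at -0.73, Egr2 at -0.64, Rgs4 at -0.55, Adcy4 at -0.51 and Adcy1 at -0.48 were called lower.

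The labels of treatment and tissue were checked on genes outside these lists. Of 5 thyroid hormone genes, Hr, Klf9 and Thrb were higher with T3 by 1.92, 1.86 and 1.30 on the log2 scale (limma adjusted p of at most 0.000308). The other 2 genes of that list did not pass, Dio3 at 0.54 (limma adjusted p = 0.12) and Thra at -0.09 (adjusted p = 0.652). All 9 measured markers of enteric neural progenitors were well above the array median, as were 7 of 8 neuron markers and all 8 of fibroblasts and mesenchyme. So were 4 of 5 markers of interstitial cells of Cajal and 3 of 7 of smooth muscle, but none of 7 of epithelium. Some of these markers also changed. In smooth muscle, Myh11 rose by 0.60 on the log2 scale, Tagln and Acta2 fell by 0.72 and 0.38, and 4 did not pass. Thy1, of the fibroblast list, rose by 1.24, more than Prph, and the other 7 did not pass. Ano1, of the Cajal list, rose by 0.43 and the other 4 did not pass. The part of these cells in the changes of the receptor genes was not tested.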

How the data were processed

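Total RNA of 6 enterosphere samples was measured on Affymetrix Mouse Gene arrays, 1 per sample. The authors deposited log2 expression values for 35556 probe sets, made with RMA and Partek 6.5 per the submitters' processing notes, with settings and genome build not given in the sources used here. RMA as usually run quantile-normalizes the arrays, which removes a change common to most genes. The number of arrays limits the precision. Probe sets were named through the platform annotation: 21789 had 1 gene symbol, 1621 several and 12146 were not listed. The probe set of highest mean over the 6 arrays stood for a gene, which left 19938 genes.

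T3 minus control was fitted for all genes with limma 3.58.1 in R 4.3.3 (lmFit, eBayes, no filter), two-sided, with Benjamini-Hochberg adjustment, and tested on simulated data. Every adjusted p of a single gene comes from this fit, unless a filter, scaling, block or left-out array is named beside it. In those cases it comes from limma run with that setting. Motifs were searched with Python 3.11.15. Named were Gpr50, Mtnr1a and Mtnr1b, each called or well-above gene, the 8 uncalled genes of smallest p, the 4 nearest to the margin and, of each list, the called genes or else the gene of smallest p. Other named genes, chosen after their values were seen, were examples of a role group (among them Gpr39, Gpr34, Gpr183, Gpr143, Gpr85, Gpr21, Gpr3, Gpr6, Aanat, Rgs7, Rgs9 and Rgs11) and cell type markers. The members and lists were chosen with earlier results of these data known. Alternatives were the replicate number as a block, other scalings, filters on dim genes, the mean of probe sets, trend with robust fitting, other margins and leaving out each array.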

Additional observations from a re-analysis of the deposited data

How the results depend on the processing

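Gpr50 and Gpr158 kept their direction and passed the limma test in every alternative fit that tested them. Gpr50 changed by 1.63 to 2.04 without 1 array (adjusted p up to 0.012) and by 1.83 to 1.88 under the other scalings. Gpr158, which the filter on the dimmest 50% of genes removed, changed by 0.94 to 1.19 without 1 array (adjusted p up to 0.0447). The number of receptor genes called, 4 as reported, was 2 to 3 without 1 array, and the genes on the pathway lists called, 9 as reported, were 4 to 10. With the replicate number as a block 2 receptor genes passed, Gpr50 and Gpr158, with adjusted p of 0.0815 for Gpr165 and 0.105 for Gpr162. Deviations of same-numbered arrays from their group means correlated at 0.18, 0.02 and 0.00 over genes. Not every sample correlated best with its own number. With so few arrays, these values cannot show whether same-numbered samples shared a preparation. Gpr162 also missed the threshold with arrays centred on the 75th percentile (adjusted p = 0.0544), and Gpr173 passed without the dimmest 50% of genes. That filter left 21 of the 66 genes and the 25% filter 46. The 18 genes well above the array median were 10 with a margin of 2 log2 units, 11 with the median of the genes tested, and 18 to 19 without 1 array. The values hold no background measure, so what was below detection is unknown.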
